A study of Mus musculus with 12 samples.

Results

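Glycolysis and the response to low oxygen were followed through 37 named genes in mouse CD8 T cells that were resting, activated in culture or recovered from melanomas. The genes were chosen by symbol: 2 glucose transporters, 9 genes of upper glycolysis, 5 of lower glycolysis, 4 of lactate handling, 3 regulators of glycolytic flux, 4 genes of oxygen sensing and 10 hypoxia target genes. All 37 were found among the 55401 gene identifiers counted in each library. The T cells carried OT-I, a transgenic T cell receptor specific for a peptide of ovalbumin, so every group had the same genotype. Naive cells (day 0) were taken without culture from the lymph nodes of tumour-free OT-I animals. Effector cells were made in vitro by 5 days of stimulation with antigen. The day 4 and day 14 groups were CD44+ OT-I cells sorted from B78ChOVA melanomas of C57Bl6/J hosts, 4 or 14 days after the cells had been transferred. The labels call both tumour groups exhausted. B78ChOVA is a melanoma line that carries ovalbumin, and C57Bl6/J is an inbred strain with T cells of its own. Each group had 3 libraries. The labels do not say whether these came from separate animals or cultures, and give neither age nor sex, so the p-values measure the spread between libraries, which may be technical.

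Glycolysis splits glucose into pyruvate in the cytosol and yields ATP without oxygen. Activated T cells are known for taking up glucose and turning much of the pyruvate into lactate, which leaves the cell together with a proton. In low oxygen the transcription factor subunit HIF-1α escapes hydroxylation by the EGLN enzymes and ubiquitination by VHL, pairs with ARNT and raises transcription of many glycolytic genes and of genes such as Vegfa, Car9 and Bnip3. T cell receptor signalling is known to raise Hif1a as well, so the same genes can move without a change in oxygen.

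Each library held 11937053 to 17094006 reads assigned to genes. Levels are given as CPM, read counts scaled to a common library size with trimmed mean of M-values factors. They compare libraries for 1 gene, not different genes, whose lengths differ. The summed level of 10 CD8 T cell genes was 5087 to 5744 CPM in naive, 6760 to 7016 in effector, 3683 to 4401 in day 4 and 4651 to 5041 in day 14 libraries. It was thus lower in every tumour library than in any naive or effector library, though its 10 genes did not move alike. Cd8b1 was at 861 to 1256 CPM in naive and effector libraries and at 283 to 409 CPM in tumour libraries. Zap70 went the other way, from 61.5 to 84.6 CPM there to 100 to 138 CPM in tumour libraries. At day 14 Cd8a (1295 to 1328 CPM) and Cd3g (418 to 478 CPM) were above every naive library (at most 1174 and 388 CPM). The part of this sum in the results was not tested. A sum of 18 melanoma genes was 44.2 to 81.2 CPM in the 6 naive and effector libraries and 554 to 2141 CPM in the 6 tumour libraries. Sums of 12 macrophage and monocyte genes reached 23.8 CPM in naive, 6.62 CPM in effector and 80.5 CPM in tumour libraries. Fibroblast genes (6) summed to at most 23.3 CPM and erythroid genes (5) to at most 30.1 CPM. The 6 endothelial genes summed to 41.8 to 198 CPM, highest in naive cells and nearly all from Pecam1, which T cells also express. In bulk RNA, fewer cells with a transcript and less transcript per cell cannot be told apart.

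Most of the genes were higher in effector than in naive cells, most were higher in the tumour than in effector cells, and most did not pass the test between day 4 and day 14. Of the 37 genes 36 had enough counts to be tested by edgeR's quasi-likelihood test (16426 genes, Benjamini-Hochberg adjustment, called at an adjusted p under 0.05). A log2 fold change is given as its value ± its SE, and a level as mean ± SD. In effector against naive cells 21 of the 36 were higher and 0 were lower, where 14.6% of all genes tested were higher and 10.4% lower. At day 14 against effector cells 23 were higher and 5 lower, against 32.6% and 28.4% of all genes. Between day 14 and day 4 the counts were 5 higher and 5 lower, against 7.17% and 4.91% of all genes. Day 4 against effector cells gave 21 higher and 4 lower (32.7% and 29.2% of all genes).

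Against naive cells both tumour groups had 32 genes higher and 3 lower. The shares of all genes were 33.4% higher and 28.8% lower at day 4, and 33.6% and 28.5% at day 14. The 3 lower genes were Pfkfb4, Pdk1 and Kdm3a in both groups. All 36 genes differed among the 4 groups, where 74.8% of all genes did. The median log2 fold change of the 36 genes was 0.55 in effector against naive cells, 0.92 at day 14 against effector cells and -0.02 at day 14 against day 4. The medians of all genes tested were 0.01, 0.06 and 0.00. These comparisons share groups, so their counts are not separate evidence of one another. Scaling by total counts instead moved the median of all genes in effector against naive cells to -0.10 and the split of calls from 2395 higher and 1703 lower to 1544 and 2508. The 36 genes then split 18 higher and 1 lower (Slc16a1, log2 fold change -0.37, edgeR adjusted p = 0.0335).

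Most of the tested genes fell into a few courses. These were not counted over all genes tested, so they do not show what is particular to these genes. In 11 genes the effector cells were above naive cells and both tumour groups were above the effector cells: Hk2, Pfkl, Aldoa, Tpi1, Gapdh, Pgk1, Pgam1, Slc16a3, Hif1a, Egln1 and Bnip3. In 10 the effector against naive test was not passed but both tumour groups were above the effector cells: Slc2a1, Eno1, Pkm, Ldha, Ldhb, Slc16a1, Pfkfb3, Car9, Ndrg1 and P4ha1. In 5 the effector cells were above naive cells and neither tumour group was called against the effector cells: Hk1, Gpi1, Aldoc, Vegfa and Bnip3l. For the first 4 of these this depended on the setting, as given with each gene. Among the 11 and the 10 genes, the day 4 call against effector cells was lost under some alternatives for Hif1a, Egln1, Bnip3 and Ldhb. The edgeR adjusted p there reached 0.106, 0.16, 0.136 and 0.0592 in turn. Pkm and P4ha1 were called higher on activation under some alternatives. Slc2a3, Pdk1 and Kdm3a were below the effector level in both tumour groups. Pfkm, Pfkp, Pfkfb4, Vhl, Egln3, Ankrd37 and Mxi1 followed none of these courses. By group mean, 15 of the 36 genes were highest at day 4, 15 at day 14, 4 in effector cells and 2 in naive cells. The highest group was not counted over all genes either.

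**Figure D1:**
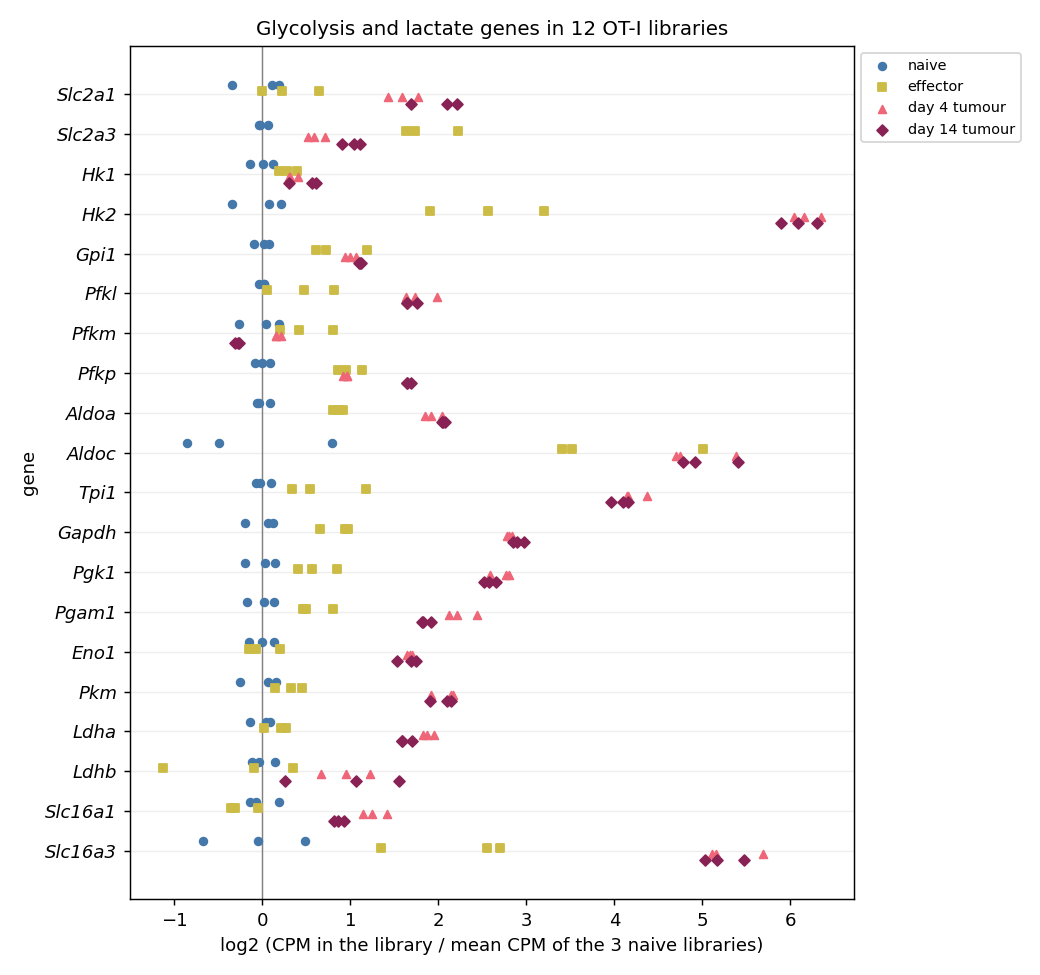
Levels of the 20 glycolysis and lactate genes in each of the 12 libraries, as log2 of the ratio to the mean CPM of the 3 naive libraries, with 1 row per gene and 1 point per library coloured by group. Hk2, Aldoc and Slc16a3 lie farthest to the right in the tumour libraries, and the naive libraries scatter around 0.

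The promoters of these genes are where HIF-1 can bind, so the core letters of the hypoxia response element were looked for. The 250 bases before each annotated gene start were read from RefSeq (GRCm38.p6), which had entries for 34 of the 37 genes and none for Slc2a3, Bnip3l and Ndrg1. The letters ACGTG on either strand (read as CACGT where they lie on the other strand) were present in 20 of the 34 genes (58.8%), and in 18.5% of the 27025 genes in the table and 24.7% of the 10466 of them that were tested. Genes with several annotated starts have several windows, some of them within exons of the gene. Counted by window, 24 of 52 (46.2%) held the letters, against 16.6% of all windows and 21.2% of those of tested genes. The same letters are also the end of the E-box CACGTG, bound by MYC and other factors, so a match does not name a factor. The genes had been chosen as glycolysis and hypoxia genes, many of them known HIF targets, so a high share could follow from that choice. Among genes higher at day 14 than in effector cells 16 of 22 (72.7%) held a match, and among the others of the 37 that were tested 4 of 11 (36.4%). This split was not tested and was not counted over all genes, so it does not tie the letters to the rise. Promoters are printed for the 3 genes with the largest rise at day 14 against effector cells, and the 1 with the largest fall, whose windows hold at most 30 annotated exonic bases. They read 5′ to 3′ on the gene's own strand, end at the base before the start annotated in RefSeq, and have each match in capitals. The gene spans given below are those of GENCODE M21, and the printed windows of Slc16a3 and Gapdh lie within them.
Hk2 (minus strand, chr6:82774455-82774704): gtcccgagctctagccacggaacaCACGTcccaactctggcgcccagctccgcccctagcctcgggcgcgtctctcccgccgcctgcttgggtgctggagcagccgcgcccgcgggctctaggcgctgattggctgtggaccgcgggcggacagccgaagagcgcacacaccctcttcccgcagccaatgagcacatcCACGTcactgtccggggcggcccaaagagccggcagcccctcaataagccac
Slc16a3 (plus strand, chr11:120948817-120949066): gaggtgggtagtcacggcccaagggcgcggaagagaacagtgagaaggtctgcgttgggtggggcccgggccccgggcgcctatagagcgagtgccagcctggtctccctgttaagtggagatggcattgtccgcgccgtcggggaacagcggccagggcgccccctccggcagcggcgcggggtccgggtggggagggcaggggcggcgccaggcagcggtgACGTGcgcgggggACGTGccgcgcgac
Gapdh (minus strand, chr6:125165774-125166023): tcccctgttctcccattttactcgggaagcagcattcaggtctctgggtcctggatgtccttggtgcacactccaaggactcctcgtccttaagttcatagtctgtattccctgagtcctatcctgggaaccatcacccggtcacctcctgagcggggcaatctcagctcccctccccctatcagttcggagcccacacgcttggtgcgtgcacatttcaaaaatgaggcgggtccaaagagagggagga
Pdk1 (plus strand, chr2:71872974-71873223): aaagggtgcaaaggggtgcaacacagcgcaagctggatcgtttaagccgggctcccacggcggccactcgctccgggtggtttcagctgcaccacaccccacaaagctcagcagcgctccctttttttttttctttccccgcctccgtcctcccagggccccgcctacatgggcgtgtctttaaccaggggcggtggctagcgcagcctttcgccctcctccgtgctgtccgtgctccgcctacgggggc
The matches began 226 and 52 bases before the start in Hk2 and 27 and 14 bases before it in Slc16a3. Car9 had 1 match, 18 bases before its start. The windows of Gapdh and Pdk1, and that of Tpi1, held none, which says only that these letters are not in these 250 bases.

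Both glucose transporter genes were higher in the tumour than in naive cells, but against effector cells Slc2a1 was higher there and Slc2a3 lower. Slc2a1 (ENSMUSG00000028645.11, chromosome 4, 119108711 to 119137983) encodes GLUT1, the main glucose carrier of proliferating cells. It was at 37.1, 39.2 and 27.1 CPM in the naive libraries, 40.3, 34.3 and 53.8 in the effector libraries, 118, 103 and 92.7 at day 4 and 159.5, 148 and 111 at day 14. The 6 tumour libraries were all above the other 6, and the naive and effector values overlapped. The rise at day 14 over effector cells was called (log2 fold change 1.70 ± 0.19, adjusted p = 3.38e-06), and the difference between effector and naive cells was not (log2 fold change 0.31 ± 0.19, adjusted p = 0.252). Slc2a3 (ENSMUSG00000003153.10, chromosome 6, 122727809 to 122801640) encodes GLUT3, a carrier of high affinity. Its level was 90.6, 97.6 and 91.6 CPM in the naive libraries, 312, 288 and 435 in the effector libraries, 153, 134 and 141 at day 4 and 202, 192 and 175 at day 14. The effector libraries were the highest and the naive libraries the lowest, and none of the 4 groups overlapped. Slc2a3 rose on activation (log2 fold change 1.89 ± 0.13, adjusted p = 8.04e-08) and fell from effector to day 14 (log2 fold change -0.86 ± 0.12, adjusted p = 1.7e-05).

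The hexokinases, which trap glucose by phosphorylation, differed from each other. Hk2 (ENSMUSG00000000628.10, chromosome 6, 82725025 to 82774454) encodes the inducible enzyme and was the gene with the largest rise in day 14 against naive cells among the 36. It stood at 1.03, 1.51 and 1.38 CPM in the naive libraries, 7.76, 4.90 and 12.1 in the effector libraries, 93.2, 107 and 85.9 at day 4 and 103, 77.5 and 89.2 at day 14. The 3 activated or tumour groups were all above the naive group, and the tumour libraries were all above the effector libraries. Hk2 rose on activation (log2 fold change 2.66 ± 0.32, adjusted p = 5.31e-05) and again in the tumour (log2 fold change 3.44 ± 0.24, adjusted p = 4.57e-08), with no call between day 14 and day 4 (log2 fold change -0.08 ± 0.21, adjusted p = 0.876). Hk1 (ENSMUSG00000037012.18, chromosome 10, 62268855 to 62379908), the constitutive enzyme, moved far less, from a mean of 84.3 ± 7.45 CPM (SD, n = 3) in naive cells to 119 ± 13.4 CPM at day 14. Its call on activation (log2 fold change 0.29 ± 0.10, adjusted p = 0.0457) was lost under DESeq2 (adjusted p = 0.0609) and under most other settings (edgeR adjusted p up to 0.338). From effector cells to day 14 it was not called (log2 fold change 0.21 ± 0.10, adjusted p = 0.0859) but was under DESeq2 (adjusted p = 0.0415) and with total counts or relative log expression factors.

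In the upper part of glycolysis 8 of 9 genes were higher in effector than in naive cells and 0 were lower, and at day 14 against effector cells 5 were higher and 1 lower. Of all genes tested, 14.6% were higher and 10.4% lower on activation, and 32.6% and 28.4% at day 14 against effector cells. Tpi1 (ENSMUSG00000023456.16, chromosome 6, 124810586 to 124814296), triosephosphate isomerase, which interconverts the 2 products of aldolase, had the largest tumour step in this group after Hk2. Tpi1 measured 23.6, 20.9 and 21.6 CPM in the naive libraries, 27.9, 32.0 and 49.7 in the effector libraries, 455, 389 and 392 at day 4 and 392, 378 and 343 at day 14. The lowest tumour library was well above the highest effector library. Its rise was small on activation (log2 fold change 0.73 ± 0.17, adjusted p = 0.00641) and large in the tumour (log2 fold change 3.34 ± 0.17, adjusted p = 1.51e-09).

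Aldolase splits fructose 1,6-bisphosphate. Aldoa (ENSMUSG00000030695.16, chromosome 7, 126795234 to 126800751), its main form in T cells here, was at 88.2, 87.1 and 95.8 CPM in the naive libraries, 157, 171 and 166 in the effector libraries, 371, 341 and 325 at day 4 and 376, 381 and 373 at day 14. The 3 levels, naive, effector and tumour, did not overlap. The symbol Aldoa has 2 identifiers, of which the longer gene model was used here and in the Aldoc share below. Counts of the other identifier are not included. Aldoa rose at both steps, by a log2 fold change of 0.86 on activation (edgeR adjusted p = 1.39e-06) and 1.20 at day 14 against effector cells (edgeR adjusted p = 2.25e-09). Aldoc (ENSMUSG00000017390.15, chromosome 11, 78322968 to 78327781), known from brain, was at 0.591, 1.43 and 0.459 CPM in the naive libraries, 9.49, 8.77 and 26.7 in the effector libraries, 34.5, 22.2 and 21.4 at day 4 and 35.1, 25.0 and 22.8 at day 14. Effector replicate 3 stood apart at the level of the tumour libraries, and the effector and tumour groups overlapped. Aldoc rose on activation (log2 fold change 4.18 ± 0.57, adjusted p = 4.08e-04). Without effector replicate 3 that fold change was 3.43 and the tumour step, not called otherwise (log2 fold change 0.88 ± 0.42, adjusted p = 0.0934), became 1.63 with adjusted p = 0.000267. Without naive replicate 2 the activation step was 4.82.

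Phosphofructokinase is the committed step of glycolysis, and its 3 genes moved in 3 ways. Pfkl (ENSMUSG00000020277.10, chromosome 10, 77986947 to 78010083), the liver form, was at 29.1, 29.1 and 28.2 CPM in the naive libraries, 40.0, 30.02 and 50.6 in the effector libraries, 114, 89.5 and 95.7 at day 4 and 97.4, 90.1 and 90.3 at day 14. The tumour libraries did not overlap with the effector libraries. Pfkl rose at day 14 (log2 fold change 1.20 ± 0.15, adjusted p = 2.69e-06), while its smaller activation step (log2 fold change 0.48 ± 0.15, adjusted p = 0.0252) was lost under 2 planned settings and when single libraries were left out. Pfkp (ENSMUSG00000021196.14, chromosome 13, 6579768 to 6648777), the platelet form, had means of 264 ± 15.2 CPM in naive cells, 522 ± 50.5 in effector cells, 509 ± 9.98 at day 4 and 835 ± 15.0 at day 14 (SD, n = 3). It rose on activation (log2 fold change 0.99 ± 0.08, adjusted p = 4.6e-07) and, unlike most of the genes, again between day 4 and day 14 (log2 fold change 0.71 ± 0.08, adjusted p = 3.05e-05). Pfkm (ENSMUSG00000033065.14, chromosome 15, 98092589 to 98132451), the muscle form, was low throughout, at 11 to 23.8 CPM, and fell from effector cells to day 14 (log2 fold change -0.78 ± 0.18, adjusted p = 0.00123). Gpi1 (ENSMUSG00000036427.5, chromosome 7, 34201330 to 34230336), glucose-6-phosphate isomerase, went from 231 ± 13.4 CPM in naive to 421 ± 94.2 CPM in effector cells (SD, n = 3; log2 fold change 0.87 ± 0.12, adjusted p = 5.22e-05) and was at 499.6 ± 3.60 CPM at day 14. That further step was not called (log2 fold change 0.25 ± 0.12, adjusted p = 0.0733), though it was under DESeq2 (adjusted p = 0.0363), both other scalings, no filter (adjusted p = 0.00665), the replicate block (adjusted p = 0.0499) and without effector replicate 2 (adjusted p = 0.000383). Without effector replicate 2 it was also called at day 4 (adjusted p = 0.00386).

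All 5 genes of lower glycolysis were higher in both tumour groups than in effector cells, and 3 of the 5 were higher in effector than in naive cells. The shares of all genes tested that were higher were 32.7% at day 4 and 32.6% at day 14 against effector cells, and 14.6% on activation. Gapdh (ENSMUSG00000057666.18, chromosome 6, 125161715 to 125166467), glyceraldehyde-3-phosphate dehydrogenase, was at 148, 177 and 184 CPM in the naive libraries, 268, 326 and 333 in the effector libraries, 1216, 1165 and 1180.3 at day 4 and 1328, 1265 and 1222 at day 14. The tumour libraries stood far above the rest, so in these cells this gene, often used as a reference, was not constant. It rose on activation (log2 fold change 0.87 ± 0.10, adjusted p = 9.55e-06) and in the tumour (log2 fold change 2.04 ± 0.10, adjusted p = 7.89e-11). Pgk1 (ENSMUSG00000062070.12, chromosome X, 106187100 to 106203699), phosphoglycerate kinase, which makes the first ATP of the pathway, was at 29.6, 34.8 and 37.7 CPM in the naive libraries, 45.2, 61.2 and 50.4 in the effector libraries, 238, 232 and 205 at day 4 and 214, 195 and 202 at day 14. The groups did not overlap except day 4 with day 14. Its step in the tumour (log2 fold change 1.96 ± 0.12, adjusted p = 7.32e-10) was larger than that on activation (log2 fold change 0.62 ± 0.12, adjusted p = 0.00110). That difference between the steps was not tested.

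Pgam1 (ENSMUSG00000011752.7, chromosome 19, 41911923 to 41918660), phosphoglycerate mutase, was at 14.1, 12.3 and 15.2 CPM in the naive libraries, 19.1, 19.5 and 24.2 in the effector libraries, 75.4, 64.5 and 60.5 at day 4 and 52.2, 49.3 and 48.8 at day 14. It was highest at day 4, and all 3 day 4 libraries were above all 3 day 14 libraries. Pgam1 rose from effector cells to day 14 (log2 fold change 1.26 ± 0.13, adjusted p = 4.96e-07).

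Eno1 and Pkm, the last steps to pyruvate, did not pass the test on activation. Eno1 (ENSMUSG00000063524.13, chromosome 4, 150236721 to 150248879), enolase 1, was at 99.8, 122 and 110.3 CPM in the naive libraries, 99.3, 105 and 127 in the effector libraries, 358, 353 and 346 at day 4 and 372, 355 and 320.0 at day 14. The naive and effector values lay in the same range and all 6 tumour libraries lay above it. The day 14 step was called (log2 fold change 1.66 ± 0.10, adjusted p = 1.12e-09) and the activation step was not (log2 fold change 0.00 ± 0.10, adjusted p = 1). Eno1b (ENSMUSG00000059040.5), a retrotransposed copy, was counted separately at 2.33 CPM in naive, 2.48 in effector, 5.91 at day 4 and 6.56 at day 14. It moved the same way (day 14 against effector, log2 fold change 1.40 ± 0.32, adjusted p = 0.00127). Multimapped reads were left out of the gene counts, so reads that fitted near-identical copies equally well were lost. Levels of Eno1 are uncertain to that extent, as are those of Gapdh, Pgk1, Ldha and Tpi1, which also have processed pseudogenes.

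Pkm (ENSMUSG00000032294.17, chromosome 9, 59656368 to 59679375) makes pyruvate, and its counts do not separate the spliced forms PKM1 and PKM2. Its level was 76.9, 96.0 and 102 CPM in the naive libraries, 115, 102 and 126 in the effector libraries, 410.4, 404 and 347 at day 4 and 394, 406 and 343 at day 14. The lowest tumour library was above the highest effector library. The rise at day 14 was called (log2 fold change 1.74 ± 0.12, adjusted p = 2.66e-09), and the activation step missed the threshold (log2 fold change 0.32 ± 0.12, adjusted p = 0.0548). That step was called without the filter on low counts (edgeR adjusted p = 0.0215). It was also called with naive replicate 3, effector replicate 2 or day 14 replicate 3 left out (edgeR adjusted p = 0.0332, 0.0301 and 0.0457).

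All 4 lactate genes were higher in both tumour groups than in effector cells, and only Slc16a3 was called on activation. Among all genes tested 32.7% were higher at day 4 and 32.6% at day 14 than in effector cells, and 14.6% were higher on activation. Ldha (ENSMUSG00000063229.15, chromosome 7, 46841475 to 46855627), the lactate dehydrogenase subunit that favours pyruvate to lactate, was at 155, 182 and 176 CPM in the naive libraries, 173, 199 and 206 in the effector libraries, 664, 627 and 609.9 at day 4 and 515, 514 and 556 at day 14. Naive and effector libraries overlapped, and both tumour groups lay above them. Ldha rose from effector to day 14 (log2 fold change 1.45 ± 0.09, adjusted p = 9.44e-10). Ldhb (ENSMUSG00000030246.12, chromosome 6, 142490249 to 142507957), the subunit that favours the reverse reaction, was at 3.84, 3.66 and 4.36 CPM in the naive libraries, 5.03, 1.81 and 3.71 in the effector libraries, 7.63, 9.25 and 6.28 at day 4 and 11.6, 8.29 and 4.72 at day 14. These few counts gave a wide scatter, and 1 day 14 library, replicate 3, lay inside the effector range. Ldhb was called at day 14 against effector cells (log2 fold change 1.21 ± 0.36, adjusted p = 0.00851), and its call at day 14 against naive cells (log2 fold change 1.05 ± 0.36, adjusted p = 0.0181) was lost without day 14 replicate 1 (adjusted p = 0.112).

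The lactate transporters both rose in the tumour. Slc16a1 (ENSMUSG00000032902.1, chromosome 3, 104638668 to 104658462) encodes MCT1 and was at 30.6, 38.1 and 31.9 CPM in the naive libraries, 27.1, 26.3 and 32.4 in the effector libraries, 89.6, 79.9 and 74.2 at day 4 and 58.8, 60.7 and 63.9 at day 14. The order was day 4, then day 14, with naive and effector cells overlapping below. The day 14 step over effector cells was called (log2 fold change 1.09 ± 0.12, adjusted p = 8.15e-07). Slc16a3 (ENSMUSG00000025161.16, chromosome 11, 120948480 to 120960868) encodes MCT4, the exporter typical of strongly glycolytic cells, and was at 0.739, 0.478 and 1.07 CPM in the naive libraries, 1.94, 4.47 and 4.95 in the effector libraries, 39.4, 27.3 and 26.4 at day 4 and 27.4, 34.0 and 24.9 at day 14. It was near 1 CPM in naive cells and at 24.9 CPM or more in every tumour library. Slc16a3 rose on activation (log2 fold change 2.28 ± 0.39, adjusted p = 4.91e-04) and in the tumour (log2 fold change 2.93 ± 0.29, adjusted p = 4.39e-07).

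Because several steps are encoded by more than 1 gene, the share of each copy was computed within a library, after dividing counts by the exonic length of the gene (GENCODE M21, GRCm38). A share needs no scaling between libraries. It was tested over the 4 groups by an exact permutation test (15400 assignments of the libraries, a statistic without direction, p adjusted by Benjamini-Hochberg over 6 shares). The same genes had entered the tests above, so the shares restate those levels on another scale. The smallest p that this design allows is 6.49e-05.

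Between Hk1 and Hk2 the share of Hk2 rose without a fall of Hk1, whose means were 84.3 CPM in naive, 103 in effector, 107 at day 4 and 119 at day 14. The Hk2 share of Hk1 and Hk2 per length was 1.89%, 2.31% and 2.27% in the naive libraries, 10.3%, 5.93% and 14.4% in the effector libraries, 56.0%, 57.6% and 54.2% at day 4 and 53.3%, 47.0% and 55.1% at day 14. Effector libraries were all above naive ones and tumour libraries all above effector ones, and the 2 tumour groups overlapped (exact permutation adjusted p = 3.9e-04). The lactate transporter transcripts shifted towards Slc16a3. Its share of Slc16a1 and Slc16a3 per length was 1.97%, 1.03% and 2.72% in the naive libraries, 5.62%, 12.4% and 11.3% in the effector libraries, 26.8%, 22.1% and 22.8% at day 4 and 27.9%, 31.8% and 24.5% at day 14. Naive, effector and tumour libraries did not overlap, and Slc16a1 was the larger part of the pair in all of them (exact permutation adjusted p = 3.9e-04).

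The glucose transporter pair did not follow that order. The Slc2a3 share of Slc2a1 and Slc2a3 per length was 54.2%, 54.7% and 62.1% in the naive libraries, 78.9%, 80.3% and 79.7% in the effector libraries, 38.6%, 38.5% and 42.3% at day 4 and 38.0%, 38.6% and 43.2% at day 14. It was highest in effector cells, and the tumour libraries were below the naive ones (exact permutation adjusted p = 7.79e-04). The Pfkp share of the 3 phosphofructokinase genes per length had means of 70.1% ± 1.79 in naive, 77.0% ± 3.17 in effector, 66.1% ± 2.17 at day 4 and 78.3% ± 0.343 at day 14 (SD, n = 3; exact permutation adjusted p = 7.79e-04). Here the day 4 libraries were the lowest and the day 14 libraries overlapped with the effector ones.

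Aldoc made at most 12.6% of aldolase per length in any library. Its group means were 0.823% ± 0.548 in naive, 7.36% ± 4.53 in effector, 6.24% ± 1.24 at day 4 and 6.13% ± 1.36 at day 14 (SD, n = 3). The exact permutation adjusted p of 0.0361 rose as high as 0.143 when 1 library was left out. The Ldhb share of lactate dehydrogenase was 1.76% to 5.77% over all libraries and the groups overlapped (exact permutation adjusted p = 0.264, unadjusted p = 0.264).

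**Figure D2:**
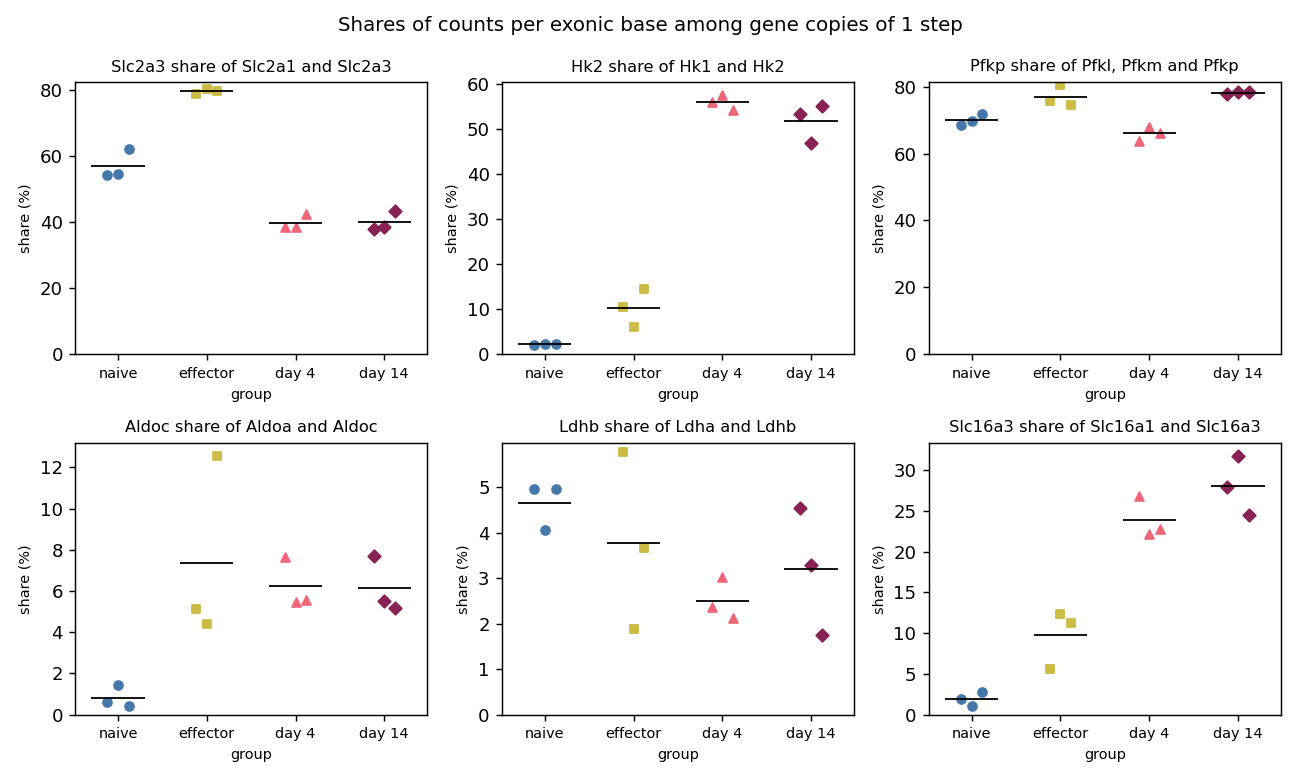
Share in percent of 1 gene copy among the copies compared, from counts per exonic base, with 1 panel per share, 1 point per library and a line at each group mean. The Hk2 and Slc16a3 shares are lowest in naive and highest in tumour libraries, whereas the Slc2a3 share is highest in effector libraries.

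The 3 regulators of flux went apart. Pfkfb3 and Pfkfb4 make fructose 2,6-bisphosphate, the activator of phosphofructokinase, and PDK1 blocks pyruvate dehydrogenase and so keeps pyruvate out of mitochondria. Pdk1 (ENSMUSG00000006494.11, chromosome 2, 71873224 to 71903858) was at 355, 284 and 332 CPM in the naive libraries, 343, 312 and 259 in the effector libraries, 96.3, 79.3 and 68.7 at day 4 and 61.2, 51.6 and 52.1 at day 14. Naive and effector libraries overlapped, all tumour libraries were below them, and day 14 lay below day 4. Pdk1 fell from effector cells to day 14 (log2 fold change -2.47 ± 0.14, adjusted p = 6.43e-10), the steepest fall of the 36 genes. As background, Pdk1 is usually listed among HIF-1 targets. The symbol here is pyruvate dehydrogenase kinase 1, not the kinase Pdpk1, which shares the alias PDK1.

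Pfkfb4 (ENSMUSG00000025648.18, chromosome 9, 108991778 to 109032228) was at 2.36, 6.45 and 4.21 CPM in the naive libraries, 2.59, 3.61 and 2.71 in the effector libraries, 1.03, 2.22 and 2.81 at day 4 and 0.792, 1.12 and 1.21 at day 14. The 4 lowest values were those of the 3 day 14 libraries and of day 4 replicate 1. Pfkfb4 fell from effector cells to day 14 (log2 fold change -1.499 ± 0.46, adjusted p = 0.00990). Pfkfb3 (ENSMUSG00000026773.19, chromosome 2, 11471433 to 11554077) was at 24.8 to 33.8 CPM in the naive and effector libraries, 83.8 to 86.4 CPM at day 4 and 58.0 to 60.9 CPM at day 14. It rose from effector cells to day 14 (log2 fold change 0.94 ± 0.10, adjusted p = 6.03e-07) and was lower at day 14 than at day 4 (log2 fold change -0.51 ± 0.10, adjusted p = 0.00211).

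Among the oxygen sensing genes 3 of 4 rose on activation and 2 of 4 rose from effector cells to day 14, and 0 fell at either step. Over all genes tested 14.6% rose on activation and 32.6% from effector cells to day 14. With 4 genes, 2 of 4 cannot be told from that second share. Hif1a (ENSMUSG00000021109.13, chromosome 12, 73901375 to 73947530) was at 59.5, 60.0 and 58.6 CPM in the naive libraries, 135, 156 and 206 in the effector libraries, 199, 206 and 215 at day 4 and 329.5, 274 and 280.2 at day 14. The order naive, effector, day 4, day 14 held in every library, except that effector replicate 3 lay among the day 4 libraries. Hif1a rose on activation (log2 fold change 1.48 ± 0.13, adjusted p = 6.25e-07), from effector cells to day 14 (log2 fold change 0.83 ± 0.12, adjusted p = 2.11e-05) and from day 4 to day 14 (log2 fold change 0.51 ± 0.12, adjusted p = 0.0101). HIF-1α is controlled chiefly as a protein, which was not measured here.

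The EGLN hydroxylases mark HIF-1α for destruction when oxygen is present, and Egln3 is itself a known HIF target. Egln3 (ENSMUSG00000035105.5, chromosome 12, 54178981 to 54203860) was at 3.25, 4.30 and 4.06 CPM in the naive libraries, 27.3, 20.1 and 34.2 in the effector libraries, 18.3, 15.4 and 14.0 at day 4 and 35.4, 21.6 and 22.0 at day 14. The effector libraries were above every day 4 library and overlapped with day 14. Egln3 rose on activation (log2 fold change 2.81 ± 0.25, adjusted p = 9.16e-07) and did not pass the test from effector cells to day 14 (log2 fold change -0.05 ± 0.22, adjusted p = 0.855). Egln1 (ENSMUSG00000031987.6, chromosome 8, 124908587 to 124949324) rose at both steps, from 61.1 ± 3.74 CPM in naive to 95.5 ± 11.9 in effector cells and 131 ± 5.60 at day 14 (SD, n = 3; edgeR adjusted p = 2.38e-04 and 8.93e-04). Vhl (ENSMUSG00000033933.13, chromosome 6, 113623959 to 113631633), the ubiquitin ligase subunit, ranged from 14.1 to 30.3 CPM and was called in neither step, though it was higher at day 14 than in naive cells (log2 fold change 0.71 ± 0.16, adjusted p = 8.57e-04).

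Of the 10 hypoxia targets 9 could be tested: 5 were higher in effector than in naive cells, and at day 14 against effector cells 5 were higher and 1 was lower. Against naive cells 8 were higher and 1 lower in either tumour group. The shares of all genes tested that were higher were 14.6% on activation and 32.6% at day 14 against effector cells. Against naive cells they were 33.4% at day 4 and 33.6% at day 14. Adm (ENSMUSG00000030790.15, chromosome 7, 110627661 to 110629820), the vasodilator adrenomedullin, had too few counts to be tested. It had 0 counts in all 6 naive and effector libraries, 4, 2 and 3 counts at day 4 and 8, 3 and 3 counts at day 14. Against a floor of 3 counts over the effector group, day 14 was at least 3.69-fold higher. Without day 14 replicate 1, which held 8 of its 14 counts there, the bound was 2.29-fold.

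**Figure D3:**
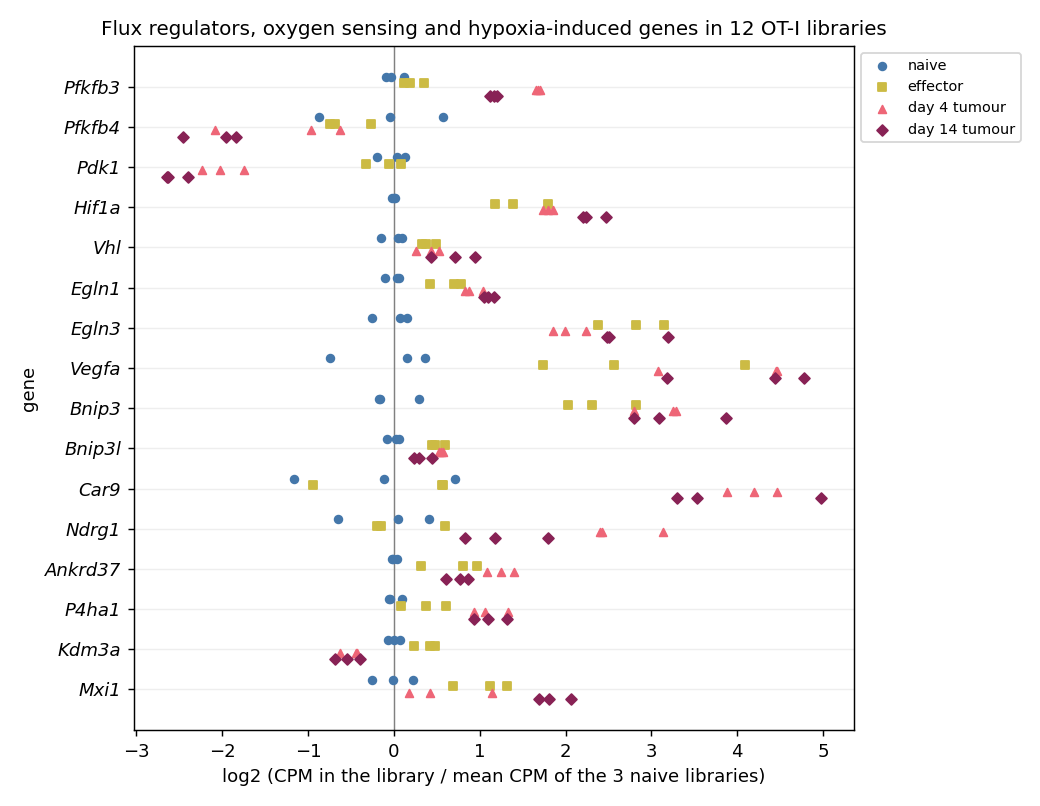
Levels of the flux regulator, oxygen sensing and hypoxia target genes (16 that were tested) in each of the 12 libraries, as log2 of the ratio to the mean CPM of the 3 naive libraries, with 1 point per library coloured by group. Vegfa, Egln3 and Bnip3 are already right of 0 in effector libraries, Car9 and Ndrg1 are right of 0 chiefly in tumour libraries, and Pdk1 lies left of 0 in every tumour library.

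Car9 (ENSMUSG00000028463.14, chromosome 4, 43506966 to 43513729) encodes carbonic anhydrase 9, a cell-surface enzyme that handles acid and a standard marker of hypoxia. Its level was 0.369, 1.35 and 0.765 CPM in the naive libraries, 1.22, 0.430 and 1.24 in the effector libraries, 12.2, 15.2 and 18.2 at day 4 and 26.2, 8.17 and 9.57 at day 14. Naive and effector libraries overlapped near 1 CPM, and every tumour library was above them. Car9 rose from effector cells to day 14 (log2 fold change 3.89 ± 0.53, adjusted p = 2.69e-05) and did not pass the test on activation (log2 fold change 0.25 ± 0.65, adjusted p = 0.831). Without day 14 replicate 1 the rise was 3.21 on the log2 scale. Ndrg1 (ENSMUSG00000005125.13, chromosome 15, 66929318 to 66969640), a stress-induced gene, was at 5.54, 9.0 and 11.5 CPM in the naive libraries, 7.55, 7.83 and 13.1 in the effector libraries, 76.1, 45.8 and 46.7 at day 4 and 30.2, 15.5 and 19.6 at day 14. It was highest at day 4, and the lowest day 4 library was above the highest day 14 library. Ndrg1 rose from effector cells to day 14 (log2 fold change 1.20 ± 0.34, adjusted p = 0.00911) and fell from day 4 to day 14 (log2 fold change -1.37 ± 0.32, adjusted p = 0.0165).

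Vegfa (ENSMUSG00000023951.18, chromosome 17, 46016993 to 46032369), the vascular growth factor, was at 0.369, 0.796 and 0.689 CPM in the naive libraries, 3.67, 2.06 and 10.5 in the effector libraries, 13.5, 13.6 and 5.21 at day 4 and 17.0, 13.5 and 5.63 at day 14. Effector replicate 3 lay above replicate 3 of both tumour groups, so the groups overlapped. Vegfa rose on activation (log2 fold change 3.13 ± 0.76, adjusted p = 0.0112). The call was lost without naive replicate 1 (adjusted p = 0.0557), and without effector replicate 3 the fold change was 2.18. The step from effector cells to day 14 was not called (log2 fold change 1.15 ± 0.59, adjusted p = 0.113) but was under DESeq2 (adjusted p = 0.0364) and without effector replicate 3 (log2 fold change 2.09, adjusted p = 0.00446).

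Bnip3 (ENSMUSG00000078566.8, chromosome 7, 138890836 to 138909519), a mitophagy receptor, was at 1.11, 1.11 and 1.53 CPM in the naive libraries, 5.10, 6.19 and 8.82 in the effector libraries, 12.2, 11.9 and 8.69 at day 4 and 18.2, 10.6 and 8.72 at day 14. It rose on activation (log2 fold change 2.41 ± 0.35, adjusted p = 9.17e-05), with no overlap. At day 14 it was called against effector cells (log2 fold change 0.90 ± 0.29, adjusted p = 0.0137), though day 14 replicate 3 lay inside the effector range. That call was lost without effector replicate 1 (adjusted p = 0.0548) and without day 14 replicate 1 (adjusted p = 0.101). Its relative Bnip3l (ENSMUSG00000022051.15, chromosome 14, 66985239 to 67008877) rose on activation (log2 fold change 0.51 ± 0.08, adjusted p = 3.11e-04) and stayed between 159 and 205 CPM in all effector and tumour libraries.

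Mxi1 (ENSMUSG00000025025.14, chromosome 19, 53310518 to 53375810), an antagonist of MYC, was at 14.9, 10.7 and 12.7 CPM in the naive libraries, 27.7, 20.6 and 31.9 in the effector libraries, 28.1, 17.1 and 14.4 at day 4 and 44.7, 53.4 and 41.2 at day 14. The day 14 libraries were the highest, with no overlap. Mxi1 rose on activation (log2 fold change 1.07 ± 0.23, adjusted p = 0.00366) and from day 4 to day 14 (log2 fold change 1.23 ± 0.23, adjusted p = 0.00204). Kdm3a (ENSMUSG00000053470.13, chromosome 6, 71588972 to 71632990), a histone demethylase, was at 184 to 203 CPM in naive, 228 to 270 in effector, 126 to 144 at day 4 and 120.2 to 148 at day 14. It fell from effector cells to day 14 (log2 fold change -0.92 ± 0.10, adjusted p = 5.67e-07). P4ha1 (ENSMUSG00000019916.14, chromosome 10, 59323296 to 59373304), a collagen prolyl hydroxylase subunit, rose from effector cells to day 14 (log2 fold change 0.75 ± 0.15, adjusted p = 3.15e-04). Ankrd37 (ENSMUSG00000050914.16, chromosome 8, 45996902 to 46005707) stayed at 1.91 to 5.11 CPM and was called in none of these 3 steps, though it was higher than in naive cells at day 4 (adjusted p = 0.00240) and day 14 (adjusted p = 0.0475). The day 14 call was lost under most alternatives (edgeR adjusted p up to 0.166). As for position, 15 of the 37 genes share exonic bases with another annotated gene, at most 26.4% of them in Ankrd37, and the counts used here do not separate strands.

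Since tumour libraries held melanoma transcripts, the genes were set beside the melanoma sum of each library. The sum was 1389.7, 1271, 946 CPM in the day 4 libraries and 2141, 921, 554 CPM in the day 14 libraries, for replicates 1, 2 and 3 in turn. The highest was 1.47 times the lowest at day 4 and 3.86 times at day 14. Among the 4 defining genes, Dct, Mlana and Tyrp1 were at 0 to 2.15 CPM in the 6 naive and effector libraries, while Pmel was already at 25.0 to 41.3 CPM there.

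Day 14 replicate 1 carried 2.90 times the melanoma sum of the mean of the other 2 day 14 libraries. Car9 was 2.96 times higher in it, Bnip3 1.88 times, Ldhb 1.79, Vegfa 1.78, Ndrg1 1.72, Egln3 1.62 and Aldoc 1.47 times. Adm, too low to be tested, was 2.95 times higher in it. In the other 29 genes that were tested the ratio was 0.681 to 1.24. Those 7 genes were all at or below 35.4 CPM in each day 14 library, and the abundant glycolytic genes were among the other 29. Melanoma cells also express many of these genes, and the melanoma part in them was not tested.

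With 3 libraries a group the order of a gene's levels can be compared with the order of the melanoma sums. At day 4 the order was the same for 19 of 36 genes, where 18.8% of all genes tested had it, and at day 14 for 13 of 36, where 20% did. Of the 9 hypoxia targets 3 had it at each time: Bnip3, P4ha1 and Mxi1 at day 4, and Vegfa, Bnip3 and Kdm3a at day 14. Among those without it at day 4, Ndrg1 was highest in the library with the highest sum (76.1 CPM, against 45.8 and 46.7 CPM). Only Car9 ran in the reverse order there, from 12.2 CPM in the library with the highest sum to 18.2 CPM in that with the lowest. Vegfa, Bnip3 and Egln3 were also called higher in effector than in naive cells. In the effector libraries the sum was 57.3 to 81.2 CPM, with Tyrp1 at 0, Pmel at 35.5 to 41.3 and Kit at 11.7 to 34.4 CPM. How much of the tumour level of these 3 genes came from melanoma RNA was not tested. With log2 of the sum as a covariate over the 6 tumour libraries, day 14 against day 4 gave 6 genes higher and 6 lower. This kept all 10 calls and added Slc2a1 (log2 fold change 0.46, edgeR adjusted p = 0.00724) and Ldha (-0.27, edgeR adjusted p = 0.0425). The sums were centred alike at both times (946 to 1390 CPM at day 4, 554 to 2141 CPM at day 14). The covariate could therefore move this contrast little, and the kept calls tell little about melanoma RNA. The steps from effector cells to the tumour were not fitted with it. Macrophage sums moved with the tumour as well (at least 25.1 CPM at day 4 and 31.3 CPM at day 14), and their part was not tested.

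**Figure D4:**
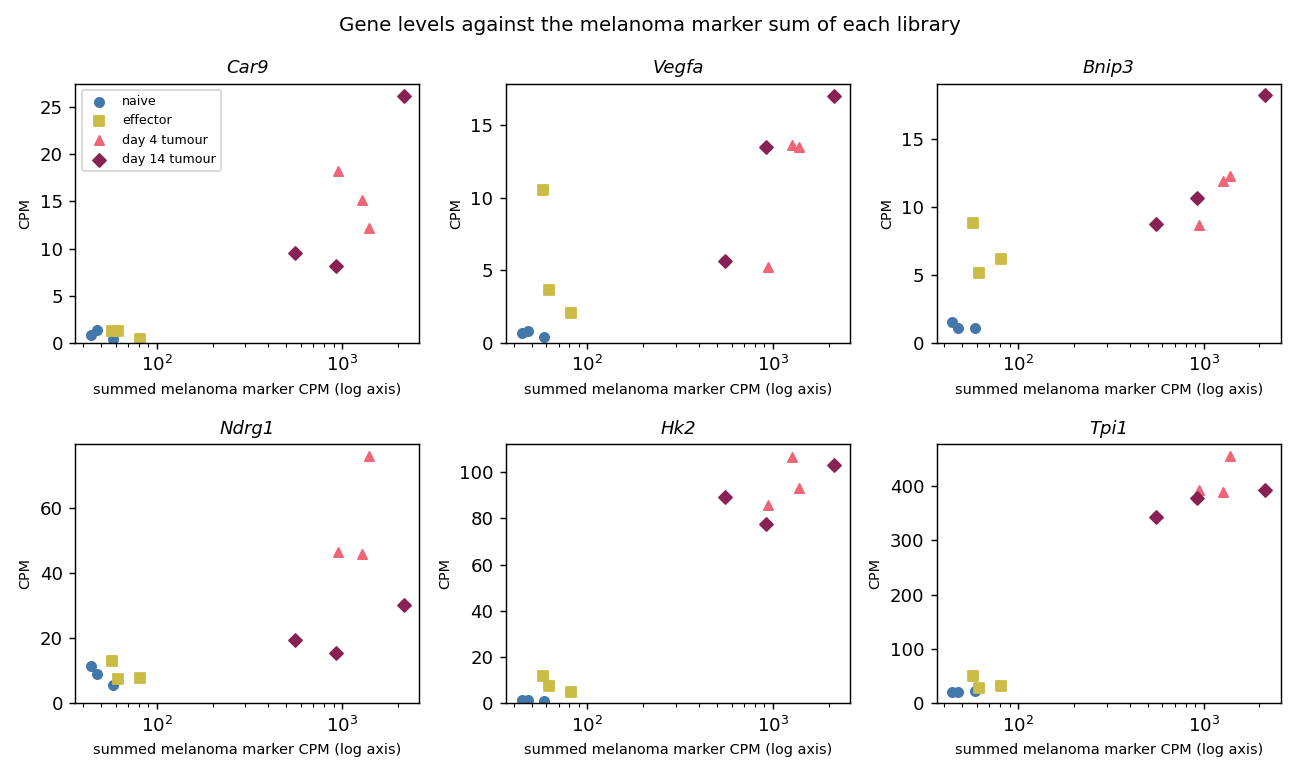
CPM of single genes against the summed CPM of 18 melanoma genes on a log axis, with 1 point per library coloured by group. Among day 14 libraries Car9 and Bnip3 are highest in the library with the highest sum, and the effector libraries show Vegfa and Bnip3 above naive libraries at sums below 100 CPM.

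Between day 4 and day 14 in the tumour 26 of the 36 genes did not pass the test. The 5 that rose were Slc2a3 (log2 fold change 0.41 ± 0.12, adjusted p = 0.0382), Pfkp, Hif1a, Egln3 (log2 fold change 0.73 ± 0.22, adjusted p = 0.0402) and Mxi1. The 5 that fell were Pgam1 (log2 fold change -0.41 ± 0.13, adjusted p = 0.0424), Slc16a1 (log2 fold change -0.41 ± 0.12, adjusted p = 0.0286), Pfkfb3, Pdk1 (log2 fold change -0.57 ± 0.13, adjusted p = 0.0104) and Ndrg1. Of these only Mxi1 rose and Ndrg1 fell by more than a log2 fold change of 1. Of the 20 glycolysis and lactate genes 2 rose and 2 fell, where 7.17% of all genes tested rose and 4.91% fell.

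Few of these calls held throughout. Pfkp, Pfkfb3 and Mxi1 kept theirs under every alternative tried. The other 7 lost it under at least 1, such as Hif1a without day 14 replicate 1 (adjusted p = 0.0618), Pdk1 without day 4 replicate 1 (adjusted p = 0.0518) and Egln3 without day 14 replicate 1 (adjusted p = 0.244). Without day 14 replicate 1 there were 2 genes higher and 3 lower. Without day 4 replicate 1 the count was 3 higher and 1 lower, and without day 14 replicate 2 there were 2 lower.

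**Figure D5:**
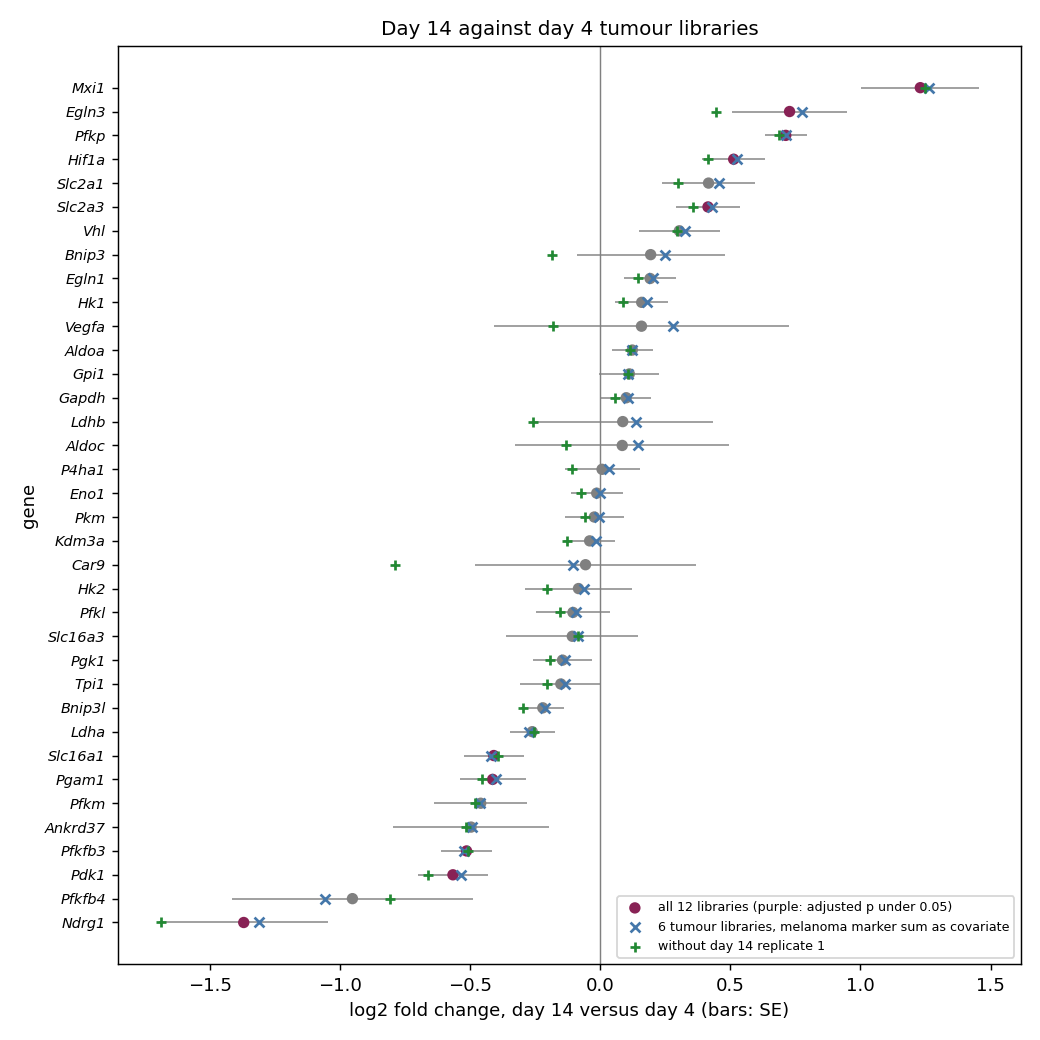
Log2 fold change of the 36 tested genes at day 14 against day 4, with bars of 1 SE and called genes in purple. Crosses and plus signs repeat the estimate with the melanoma sum as covariate and without day 14 replicate 1. Mxi1 at 1.23 and Ndrg1 at -1.37 are the extremes among the called genes, and most genes lie within 0.5 of 0.

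Other genes of the same pathways were counted from lists, which like the 37 were drawn up with results of these data known. Beside their counts stand the shares of all genes tested: 14.6% higher and 10.4% lower on activation, 32.6% and 28.4% at day 14 against effector cells, and 7.17% and 4.91% at day 14 against day 4. Of 20 further glycolysis genes tested, 2 were higher and 2 lower in effector against naive cells, 10 were higher and 3 lower at day 14 against effector cells, and 0 were higher and 2 lower at day 14 against day 4. At day 14 against effector cells the median log2 fold change was 0.97 in these 20 genes, 0.06 in all genes tested. Slc16a7, which encodes the pyruvate and lactate carrier MCT2, had 0 counts in effector cells and 326 at day 14, at least 85.9-fold higher against a floor of 3 counts over the group. Day 14 replicate 1, the library with the highest melanoma sum, held the most, and without it the bound was 47.8-fold (47.8 to 114 over the libraries left out in turn). The part of melanoma RNA in this gene was not tested. Pgam2, the muscle mutase, fell at the same step, from 5.78 to 1.45 CPM (log2 fold change -1.99 ± 0.33, adjusted p = 7.98e-05). Slc2a6, a lysosomal hexose transporter, was at 0.500 CPM in naive, 2.46 in effector, 32.0 at day 4 and 5.33 at day 14. It was highest at day 4 and fell to day 14 (log2 fold change -2.59 ± 0.50, adjusted p = 0.00531). Gpd1, glycerol-3-phosphate dehydrogenase, fell on activation (log2 fold change -2.81 ± 0.98, adjusted p = 0.0456), from 23 to 3 counts, a ratio of 0.133 (95% interval 0.0255 to 0.439, counting error only). All 3 effector counts were in replicate 1, without which it was at least 4.81-fold lower.

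Of 12 genes of pyruvate dehydrogenase and mitochondrial pyruvate entry, 1 was higher and 0 lower on activation, and 5 were higher and 2 lower at day 14 against effector cells. Between day 14 and day 4 the counts were 0 and 2. The median at day 14 against effector cells was 0.315. The kinases parted here too. Pdk3 was at 29.7 CPM in naive, 41.7 in effector, 140.0 at day 4 and 101 at day 14, and rose at day 14 over effector cells (log2 fold change 1.28 ± 0.10, adjusted p = 9.81e-09), whereas Pdk2 fell (log2 fold change -1.51 ± 0.24, adjusted p = 5.03e-05) as Pdk1 did. Pdk3 also rose on activation (log2 fold change 0.49 ± 0.10, adjusted p = 0.00165) and fell from day 4 to day 14 (log2 fold change -0.47 ± 0.09, adjusted p = 0.00303).

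Of 15 other HIF pathway components, 3 were higher and 3 lower on activation, 7 and 7 at day 14 against effector cells, and 2 and 0 at day 14 against day 4, with a median of 0.19 at day 14 against effector cells. Epas1, which encodes HIF-2α, was at 7.29 CPM in naive, 1.08 in effector, 30.1 at day 4 and 126 at day 14. It fell on activation (log2 fold change -2.71 ± 0.48, adjusted p = 0.00229) and rose from effector cells to day 14 (log2 fold change 6.82 ± 0.45, adjusted p = 3.15e-07) and from day 4 to day 14 (log2 fold change 2.08 ± 0.32, adjusted p = 0.00197). Arnt2, a partner of HIF subunits best known from neurons, had 3 counts in effector cells and 1285 at day 14, a ratio of 338 (95% interval 116 to 1.64e+03, counting error only). All 3 effector counts were in replicate 1, without which day 14 was at least 216-fold higher. Day 14 replicate 2 was the highest, and without it the ratio was 206. Arnt2 rose also from day 4 to day 14 (log2 fold change 3.87 ± 0.58, adjusted p = 0.00183). Hif3a, which can restrain HIF, rose on activation (log2 fold change 2.28 ± 0.34, adjusted p = 1.19e-04) and fell from effector cells to day 14 (log2 fold change -2.59 ± 0.34, adjusted p = 5.76e-06). Epas1 is also a gene of endothelium. It was at 134, 153 and 92.4 CPM in the 3 day 14 libraries. Of the endothelial genes other than Pecam1, Kdr was at 3.76 CPM and Cdh5 at 2.18 CPM in day 14 replicate 1, and both were at most 0.383 CPM in each other library. The part of endothelial or melanoma RNA in the Epas1 level was not tested.

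Of 31 other hypoxia-induced genes, 9 were higher and 3 lower on activation, 18 and 6 at day 14 against effector cells, and 5 and 4 at day 14 against day 4. Their median at day 14 against effector cells was 0.82. Stc2, a secreted glycoprotein, had 1 count in naive and 81 in effector cells, a ratio of 82.5 (95% interval 14.4 to 3.3e+03, counting error only). Without naive replicate 2, which held that count, effector cells were at least 18.7-fold higher. Stc2 was higher at day 14 than at day 4 (log2 fold change 2.92 ± 0.66, adjusted p = 0.00754). Car12, another cell-surface carbonic anhydrase, fell on activation (log2 fold change -1.66 ± 0.21, adjusted p = 3.45e-05). Ankzf1, a ribosome quality control gene, fell from effector cells to day 14 (log2 fold change -2.27 ± 0.17, adjusted p = 1.16e-08), and Fam162a, a mitochondrial hypoxia-induced gene, fell from day 4 to day 14 (log2 fold change -0.76 ± 0.21, adjusted p = 0.0257).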

How the data were processed

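RNA from sorted OT-I T cells was amplified as cDNA with the Ovation RNA-Seq System V2 and made into Nextera XT libraries, per the labels' protocols. The authors deposited 1 table of raw read counts per gene for each of the 12 libraries. Reads were trimmed with fastp 0.19.6 and aligned with STAR 2.6.1b to GRCm38, tools and build per the submitters' processing notes, with roles taken from what these tools do. The annotation release is not given in the sources used here. The unstranded column was used: the other 2 split the reads nearly evenly. Reads outside genes (20.7% to 30.2%), unmapped (4.90% to 5.52%), multimapped (5.90% to 7.29%) and ambiguous reads (3.22% to 3.81%) stayed out of library sizes. Identifiers were named with GENCODE M21, which matched 55141 of 55401. Cells were lysed directly and cDNA was amplified without molecular identifiers, and the intervals and floors given take in counting error alone. No 2 libraries agreed within sampling noise.

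Counts from all 12 libraries were fitted in 1 model with 4 groups (edgeR 4.0.16, robust quasi-likelihood, filterByExpr, 8 residual degrees of freedom). The fit was tested on simulated data. Depth varied less than 1.5 times, which limits precision mainly for genes under a few CPM. Alternatives were DESeq2 1.42.0, other scalings, no filter, the compared groups alone, a replicate block, a melanoma covariate and leaving out each library. Figures and shares used Python 3.11.15. The genes and lists were chosen with earlier results of these data known. Values in every library are given for genes called in effector against naive, day 14 against effector or day 14 against day 4 with an absolute log2 fold change of at least 1. Of each other list, the called genes with the highest and lowest fold change in those comparisons are named, except 1 that is not reported here.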

Additional observations from a re-analysis of the deposited data

How the results depend on the processing

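No called gene changed direction under any alternative tried. Calls of genes higher and lower kept within 1.5 times their counts under DESeq2, other size factors, no filter, compared groups alone and the melanoma covariate, apart from 1 gene called lower in effector against naive cells with total counts as scaling, where the count was 0. Leaving out 1 library gave 18 to 23 genes higher and 0 lower in effector against naive cells, 22 to 26 higher and 5 lower at day 14 against effector cells, and 2 to 5 higher and 1 to 6 lower at day 14 against day 4. For day 4 against effector cells the ranges were 18 to 23 and 3 to 6, and against naive cells 30 to 32 higher with 2 to 3 lower at day 4 and 3 lower at day 14. The spread of the Aldoc share between group means was 5.41 to 8.02 percentage points, with an adjusted p of up to 0.143. Of the calls, 4 of 21 were lost under at least 1 alternative in effector against naive cells, 1 of 28 at day 14 against effector cells, 7 of 10 at day 14 against day 4, 4 of 35 and 2 of 35 at day 4 and day 14 against naive cells, and 5 of 25 at day 4 against effector cells. Same-numbered libraries of different groups did not deviate together (correlations of -0.0884 to 0.102, and 12 of 36 best with their own number). This does not exclude that same-numbered libraries shared animals or a batch. With the replicate number as a block, 21 and 0, 24 and 5, 5 and 4, 32 and 3, 31 and 3, and 20 and 4 genes were higher and lower in effector against naive, day 14 against effector, day 14 against day 4, day 4 against naive, day 14 against naive and day 4 against effector cells. Low counts limit Adm, Pfkfb4 and Ankrd37. They also limit the naive level under several of the largest rises. The naive group held 24 counts of Vegfa, 30 of Slc16a3, 32 of Aldoc, 32 of Car9, 49 of Bnip3 and 51 of Hk2. Car9 had 38 counts in the effector group. The fold changes of these genes are given with their SE, without a count interval. Count ratios without single libraries, for Adm and 4 genes of other lists, were added after seeing the data.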
